A study of Homo sapiens with 4 samples.

Results

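The loci of 7 transcription factors that set intestinal epithelial identity, namely CDX1, CDX2, GATA4, GATA6, KLF5, ELF3 and ISX, were examined for binding labelled as HNF1. Each locus was a window of the hg19 genome holding the gene and about 50 kb on either side, and a peak belonged to a window when its midpoint lay in it. The 7 windows held 14 of the 5060 peaks of replicate 1 and 11 of the 4955 peaks of replicate 2. The cells were Caco2, a colorectal adenocarcinoma line grown in low glucose medium with serum and without any treatment named in the labels. Of 4 libraries, 2 were immunoprecipitations with an antibody labelled HNF1 and 2 were inputs without antibody, and each immunoprecipitation has 1 peak list called against its own input. The antibody field and the titles name HNF1, but the extraction text names FOXA2, and the catalogue number in the antibody field may be that of a FOXA2 antibody, which was not checked. The name HNF1 is therefore used only as a label, and every peak described here could be one of FOXA2, a forkhead factor, instead. Whether the 2 replicates were separate cultures is not said, and peak lists carry no expression values by which the cell line could be checked.

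HNF1 binds DNA as a dimer, at a palindromic site made of inverted GTTAAT repeats, and in enterocytes it is known to act on genes such as sucrase-isomaltase together with CDX and GATA factors. CDX1 and CDX2, the caudal homeodomain factors, specify intestinal epithelium, and CDX2 is required for its identity. GATA4 and GATA6 are zinc finger factors of the intestinal epithelium, KLF5 is a Krüppel-like zinc finger factor of proliferating crypt cells, ELF3 is an ETS factor restricted to epithelia, and ISX is an intestine-specific homeodomain repressor of vitamin A uptake and conversion.

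Binding that recurred in both libraries was found at ELF3, KLF5 and CDX2, with 3, 3 and 2 sites. The windows of CDX1, GATA4, GATA6 and ISX held 7 peaks together, each in 1 list only, and the scores of these peaks lay between 8 and 12. The 25 window peaks made up 17 distinct regions, of which 8 were found in both lists, 6 in replicate 1 alone and 3 in replicate 2 alone. A shared region here is one in which peaks of the 2 lists overlap by at least 1 bp. Of the window peaks of replicate 1, 8 of 14 or 57.1% had a partner in the other list (95% exact binomial interval 28.9% to 82.3%), against 57.5% of all its peaks. Of those of replicate 2, 8 of 11 or 72.7% did (39.0% to 94.0%), against 58.6% of all its peaks. Both intervals are wide and include the share of the whole list, and they treat peaks as independent. The 8 peaks with a partner in each list make up the same 8 shared regions, so the intervals are not separate evidence. No test was made on these counts, since the peaks of a list come from 1 library and are not replicates.

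**Figure D1:**
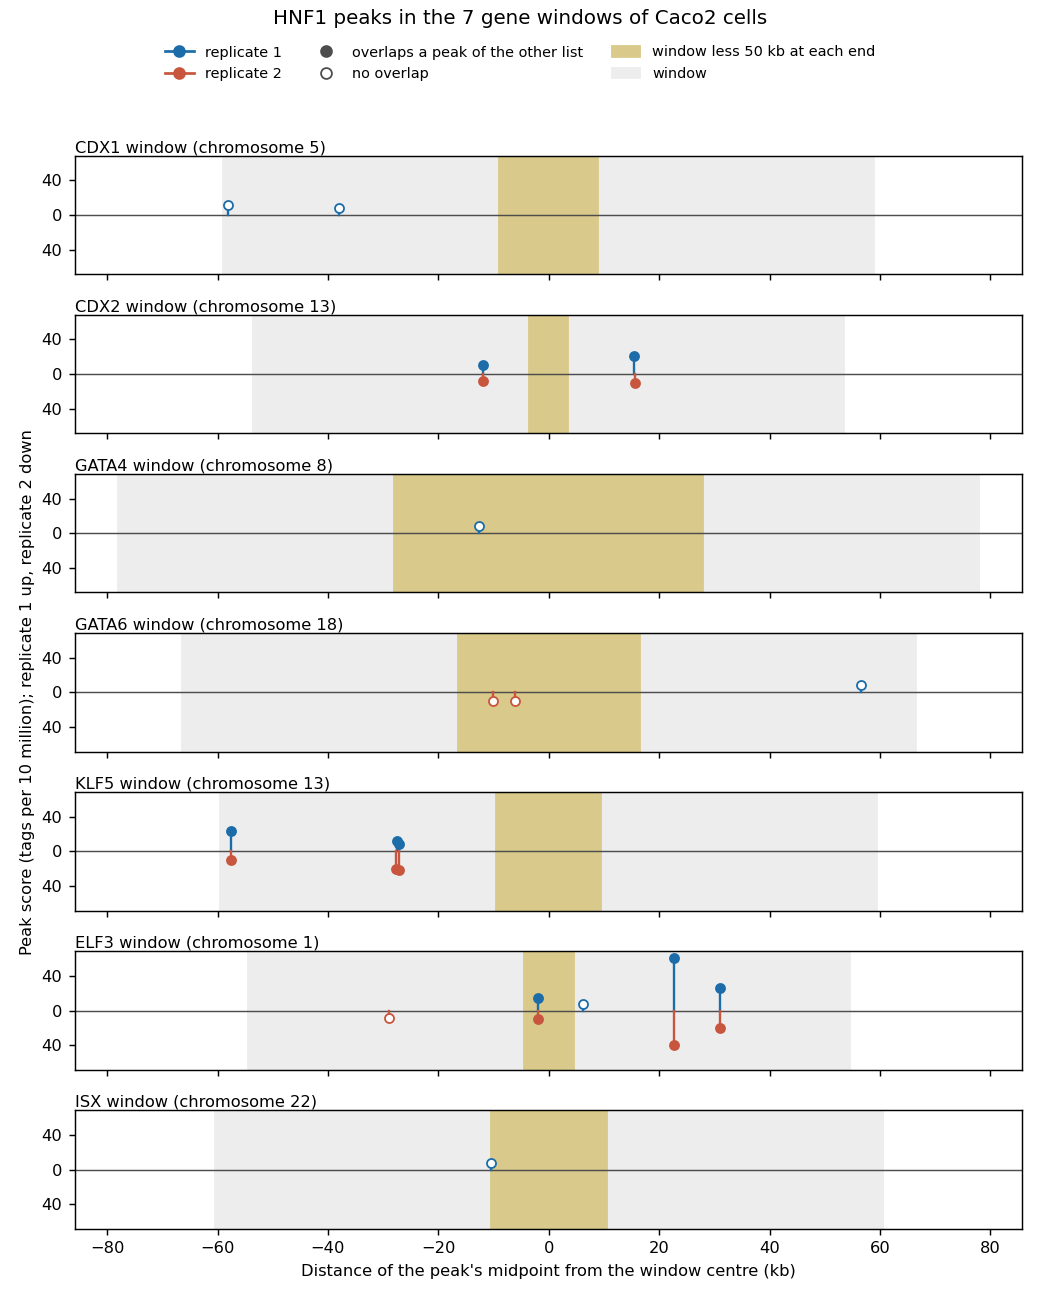
Position and score of every peak in the 7 windows, with the distance of the midpoint from the window centre in kb on the horizontal axis and the score in tags per 10000000 on the vertical axis, replicate 1 upwards and replicate 2 downwards. Filled circles are the peaks that overlap a peak of the other list, and they stand in the CDX2, KLF5 and ELF3 windows alone, with the highest scores of 60 and 40 in the ELF3 window.

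The score printed for a peak is the tag count that the authors scaled to a library of 10000000 tags and deposited. Replicate 1 had 11931439 tags and replicate 2 had 18469659 tags, so that a single tag added 0.838 to a score of replicate 1 and 0.541 to a score of replicate 2. The intervals given below with single scores are 95% Poisson intervals of approximate tags, recovered by dividing the score by that amount and rounding. They cover counting error only. The lowest score of each list was 6, below the calling thresholds of 9 and 13 tags, which scale to 7.54 and 7.04. The recovered tags need therefore not be those that the caller counted, and the intervals are approximate. Peaks were 143 bp wide in replicate 1 and 227 bp wide in replicate 2, and the lists were called with different settings. Scores were therefore compared within a list, not between the lists.

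All 7 windows held a peak of replicate 1 and 4 of them held a peak of replicate 2. When the span of each chromosome between its outermost peaks was divided into adjoining windows of 119 kb, the median length of the 7, 15.7% of these held a replicate 1 peak and 15.1% a replicate 2 peak. At least 1 shared region lay in 3 of the 7 windows, against 9.90% of the 24481 adjoining windows. At least 3 shared regions lay in 2 of the 7 windows, those of KLF5 and ELF3. Of the adjoining windows, 68 or 0.278% held that many. The KLF5 count included 2 sites 500 bp apart in replicate 1 and 1 site 1.88 kb inside the window end. It fell to 2 when more overlap was required. In windows narrowed by 40 kb at each end, KLF5 had 0 and ELF3 had 1. Cutoffs of 2 and 4 shared regions, met by 3 and 0 of the 7 windows, were not set against the adjoining windows. The genes and comparisons were chosen with earlier results of these lists known. Together the 7 windows spanned 863 kb and held 16.2 replicate 1 peaks, 12.7 replicate 2 peaks and 9.27 shared regions per Mb. The whole lists held 1.74 peaks, 1.70 peaks and 0.997 shared regions per Mb of the 2915 Mb between outermost peaks. Within about 10 kb of the genes lay 2 of the 8 shared regions, 1 at CDX2 and 1 at ELF3. The adjoining windows include assembly gaps and stretches without genes, whereas every one of the 7 was laid around a gene, and the part of this in the higher density was not tested.

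Peaks were placed against each gene by taking 50 kb off both window ends, which leaves an approximate gene interval. The interval differed from the RefSeq length of the gene in GRCh38 by 0.0600 to 3.56 kb for 6 genes and by 27.1 kb for GATA4. Distances to a gene end are therefore accurate to a few kb, and less so at GATA4. Strands and neighbouring genes were taken from RefSeq in GRCh38, whose coordinates were not used for the peaks. Which exon, intron or neighbouring gene a peak lies in was not analysed here.

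ELF3 drives epithelial differentiation genes and had the site with the highest score of the 7 loci in both lists. Its window, chr1:201927000-202036000, held 4 peaks in each list and 5 distinct regions. The leading site, chr1:202004066-202004292, scored 60 in replicate 1 (47.2 to 76.0) and 40 in replicate 2 (31.5 to 50.3). It ranked 66 among the 5060 peaks of replicate 1 and 91 among the 4955 of replicate 2, and 3 of 398 and 8 of 407 on chromosome 1. No peak with a higher score lay within 7.82 Mb of it in replicate 1 or within 2.01 Mb in replicate 2. The midpoints of its peaks in the 2 lists were 18 bp apart.

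A second ELF3 site, chr1:202012478-202012704, scored 26 in replicate 1 (17.7 to 36.9) and 20 in replicate 2 (14.1 to 27.6), and the midpoints of the 2 peaks coincided. It lay 8.39 kb from the leading site in replicate 1 and 8.41 kb in replicate 2. Both sites were beyond the downstream end of the gene, by about 18.2 and 26.6 kb, on the side of GPR37L1, the next protein-coding gene in that direction. In both lists the interval of the leading site did not overlap that of the second. The leading site was named for its score in these same lists, and the difference was not tested.

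The third ELF3 site, chr1:201979382-201979608, scored 14 in replicate 1 (8.30 to 22.8) and 10 in replicate 2 (5.78 to 15.4). Its interval overlapped that of the second site in both lists. Its midpoint lay about 2.53 kb inside the approximate gene interval, counted from the end where the gene starts, and no other site of ELF3 was as near to it. That interval differs from the RefSeq length of the gene by 2.40 kb, so whether the site lies inside the gene is not known. The 2 remaining regions were found once. A peak at chr1:201987710-201987852, about 1.78 kb beyond the downstream end, scored 7 in replicate 1 (2.89 to 13.2), and a peak at chr1:201952515-201952741, about 24.4 kb upstream of the start, scored 8 in replicate 2 (4.55 to 13.4).

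ELF3 and ISX were the loci where a peak lay nearest to the likely start of the gene, so the 250 bases before their RefSeq starts are shown here, at chr1:202010337-202010586 and chr22:35065908-35066157 of GRCh38, both on the plus strand. Capitals mark letters that match a motif of the search described next, with up to 2 mismatches for the full HNF1 site. It is not known from these positions whether the peaks, which are given in hg19, cover them.
ELF3: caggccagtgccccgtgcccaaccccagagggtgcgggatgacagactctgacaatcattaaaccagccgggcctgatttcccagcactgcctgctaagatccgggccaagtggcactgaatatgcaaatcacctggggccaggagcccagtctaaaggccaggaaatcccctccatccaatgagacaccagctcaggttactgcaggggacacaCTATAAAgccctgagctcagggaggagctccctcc
ISX: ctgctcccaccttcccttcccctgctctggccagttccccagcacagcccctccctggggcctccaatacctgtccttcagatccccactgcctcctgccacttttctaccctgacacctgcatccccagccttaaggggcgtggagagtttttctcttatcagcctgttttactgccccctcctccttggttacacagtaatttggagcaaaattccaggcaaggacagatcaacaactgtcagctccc

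RefSeq promoter entries, 250 bases before to 50 after each start, were used for 5 of the 7 genes, with 2 for KLF5, and were searched on both strands. GATA4 lies on chromosome 8, whose entries were left out by plan, and no entry was found for CDX1. The CDX motif TTTATNG was in 3 of the 6 entries, those of ELF3, CDX2 and the upstream start of KLF5, against 9.73% of all 35116 entries. In ELF3 it was the run at 35 to 29 bases before the start, whose letters include TATAAA, the core of a TATA box. The full HNF1 site, GTTAAT and ATTAAC with 1 base between them and up to 2 mismatches, was in none of the 6 entries and in 1.31% of all. The single repeat GTTAAT was in the CDX2 entry, across the start itself, and in 6.88% of all entries. The CDX2 entry also held the FOXA motif TGTTTAC at 13 to 7 bases before the start, and the GATA motif AGATAA at 119 to 114 bases before it, both on the opposite strand. These motifs were in 3.42% and 10.3% of all entries. The HNF4 motif CAAAGTCCA with up to 1 mismatch was in none of the 6 and in 6.97% of all. None of the searched motifs was in the GATA6 entry, the ISX entry or the downstream KLF5 entry. A match describes letters and shows no binding, and the peaks themselves were not searched because no hg19 sequence was used here.

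KLF5 sustains crypt cell proliferation, and all of the sites inside its window recurred. Its window, chr13:73583000-73702000, held 3 peaks in each list, and these formed 3 shared regions. The site farthest upstream, chr13:73584777-73585003, scored 23 in replicate 1 (14.9 to 32.9) and 10 in replicate 2 (5.78 to 15.4). It lay about 48.1 kb upstream of the approximate gene interval and 1.88 kb inside the window end, on the side of PIBF1. KLF5 has 2 RefSeq starts, and this interval is 3.56 kb shorter than the RefSeq gene. Distances to the upstream start may therefore be smaller than those given here. All 3 sites were on the upstream side, and no peak of either list lay within the approximate gene interval or downstream of it in the window. Recurrence was not complete beyond the window. A region 2.06 kb past its upstream end, chr13:73580828-73581054, scored 7 in replicate 2 and was not found in replicate 1.

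The other 2 KLF5 sites formed a close pair about 18.1 and 17.6 kb upstream of the approximate gene interval. The site at chr13:73614741-73614993 scored 12 in replicate 1 (6.41 to 19.7) and 20 in replicate 2 (14.1 to 27.6). The site at chr13:73615229-73615493 scored 9 in replicate 1 (4.60 to 16.5) and 21 in replicate 2 (15 to 28.9). The midpoints of the pair were 500 bp apart in replicate 1 and 488 bp apart in replicate 2, and the calling allowed no peaks closer than 284 and 452 bp. Such closeness was seen at 39 of all 2905 shared regions, or 1.34%, taking midpoints within 1 kb. Within replicate 1 the farthest site had the highest score of the 3, and within replicate 2 it had the lowest. The intervals of the 3 sites overlapped in each list, which does not place the differences within counting error, and these differences were not tested. In replicate 2 the site with the score of 21 had no higher scored peak within 2.41 Mb.

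CDX2 is the homeodomain factor most tied to intestinal identity, and its window, chr13:28486000-28593000, held 2 peaks in each list, which formed 2 shared regions on opposite sides of the gene. The gene lies on the minus strand, so its start is at the higher coordinate. The upstream site, chr13:28554940-28555166, scored 21 in replicate 1 (13.6 to 30.9) and 10 in replicate 2 (5.78 to 15.4). It lay about 12 kb beyond the start, on the side of URAD and FLT3. In replicate 1 no higher scored peak lay within 1.01 Mb of it, and in replicate 2 the nearest such peak was 111 kb away.

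The downstream CDX2 site, chr13:28527384-28527610, scored 11 in replicate 1 (5.80 to 18.6) and 8 in replicate 2 (4.55 to 13.4). It lay about 8.48 kb beyond the end of the gene, on the side of PDX1. In both lists the upstream site had the higher score, and in both the intervals of the 2 sites overlapped. The sites were 27.5 kb apart in replicate 1 and 27.6 kb apart in replicate 2. Chromosome 13, which carries both CDX2 and KLF5, had 1.46 replicate 1 peaks and 1.83 replicate 2 peaks per Mb.

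The other homeodomain loci, CDX1 and ISX, had peaks in replicate 1 alone. In the CDX1 window, chr5:149496000-149614000, a peak at chr5:149496817-149496959 scored 12 (6.41 to 19.7) and a peak at chr5:149517005-149517147 scored 8 (4.02 to 15.4). Both lay on the side of PDGFRB, about 49.1 and 28.9 kb outside the gene interval, and the first was 0.887 kb inside the window end. The nearest replicate 2 peak to them was 25.7 and 45.8 kb away. In the ISX window, chr22:35412000-35533000, the single peak at chr22:35462023-35462165 scored 8 (4.02 to 15.4). Its midpoint was 0.0935 kb inside the gene interval at the end where the gene starts, the smallest distance of the 25 window peaks to either end of such an interval. That distance is finer than the accuracy of the interval ends, so whether the peak lies inside the gene is not known. The nearest replicate 2 peak was 252 kb away.

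The GATA loci had no shared region. GATA4, in the window chr8:11511000-11667000, had 1 peak at chr8:11576342-11576484, which scored 8 in replicate 1 (4.02 to 15.4) and lay inside the approximate gene interval. The nearest replicate 2 peak to it was 1033 kb away, the largest such distance among the window peaks. GATA6, in the window chr18:19699000-19832000, had 2 peaks in replicate 2, at chr18:19755353-19755579 and chr18:19759288-19759514. Each scored 10 (5.78 to 15.4), and they lay inside the gene interval, about 6.47 and 10.4 kb from the start. Replicate 1 had 1 peak in this window, at chr18:19821951-19822093, about 40 kb downstream of the gene, with a score of 8 (4.02 to 15.4). The nearest peaks of the other list were 40.9 to 66.6 kb away.

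The peaks found once had low scores. The 6 such window peaks of replicate 1 scored 7 to 12 with a median of 8, and the 8 with a partner scored 9 to 60 with a median of 17.5. In replicate 2 the 3 peaks found once scored 8 to 10 with a median of 10, and the 8 with a partner scored 8 to 40 with a median of 15. The whole lists showed a like split, with medians of 9 without a partner in each list and of 15 and 14 with one. A replicate 1 score of 8, as at ISX, GATA4 and GATA6, corresponds by division to about 9 or 10 tags. The calling threshold of 9 tags corresponds to a score of 7.54, which also rounds to 8. Among replicate 1 peaks scored up to 9, 1 of 6 window peaks had a partner, against 30.9% of all such peaks, and in replicate 2 this was 1 of 2, against 32.2%. At scores of 10 to 14 it was 3 of 4 window peaks in replicate 1, against 54.8%, and 3 of 5 in replicate 2, against 59.2%. Of those scored 15 or more, 4 of 4 window peaks had one in each list, against 85.4% in replicate 1 and 88.1% in replicate 2. At scores up to 9 most peaks of either list had no partner, whereas at 10 to 14 most had one. The CDX1 peak that scored 12 and the 2 GATA6 peaks of replicate 2 that scored 10 belong to the latter class. The lists do not show whether the ISX, CDX1, GATA4 and GATA6 sites were unbound in the other library.

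**Figure D2:**
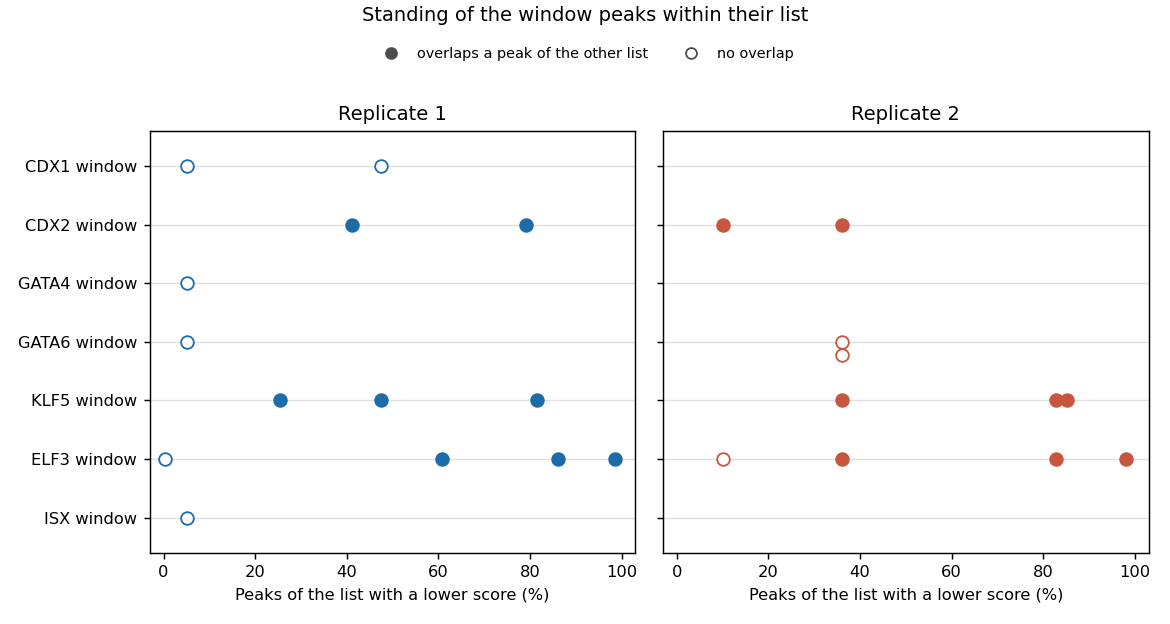
Share of the list with a lower score, in percent, for each window peak of replicate 1 and replicate 2, with a row for each gene window. Filled circles overlap a peak of the other list, and circles with the same value are offset within their row. The leading ELF3 site stands above 98.6% of replicate 1 and 98.1% of replicate 2, while the GATA4 and ISX peaks stand above 5.10% of replicate 1.

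The median scores of the window peaks lay near those of their lists, with wide intervals, and likeness was not tested. Their median was 11.5 in replicate 1 (95% interval from order statistics 8 to 23), against 12 in the list. There 7 of 14 reached the list median, against 2656 of all 5060 peaks. In replicate 2 the median was 10 (8 to 21), against 11 in the list. Here 4 of 11 reached the list median, against 2702 of all 4955 peaks. The highest standing in replicate 1 was that of the 2 downstream ELF3 sites, which exceeded 98.6% and 86.1% of the replicate 1 peaks.

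The standing of a shared site differed between the lists at most loci. At the leading ELF3 site the share of peaks with a lower score differed by 0.534 percentage points between the lists, and at the second ELF3 site by 3.22 points. At the other 6 shared sites it differed by 24.7 to 59.6 points, the largest being the KLF5 site that scored 9 in replicate 1 and 21 in replicate 2. The median difference was 33.2 points over the 8 window pairs and 15.6 points over all 2907 pairs. The direction was not uniform, since the KLF5 pair stood higher in replicate 2, and the remaining 6 sites stood higher in replicate 1. The midpoints of window pairs lay a median of 25.5 bp apart, against 27.0 bp over all pairs.

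**Figure D3:**
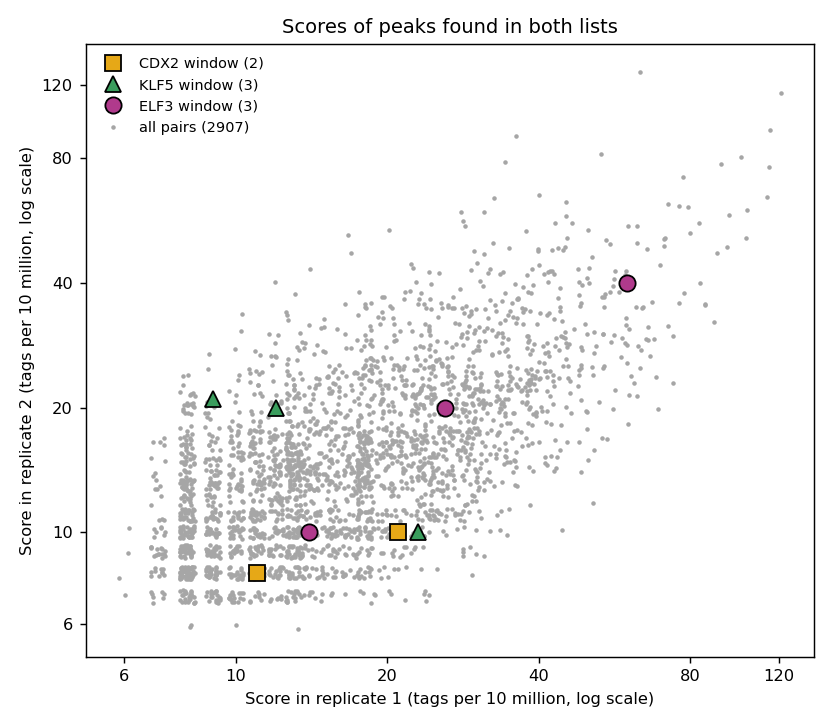
Scores of the sites found in both lists, replicate 1 on the horizontal and replicate 2 on the vertical axis, both on log scales in tags per 10000000. Large symbols are the 8 window sites by gene and small grey points are all 2907 pairs, moved by a small random amount so that equal values can be seen. The ELF3 sites lie along the cloud from 14 and 10 up to 60 and 40, while 2 KLF5 sites, at 12 and 20 and at 9 and 21, lie at its upper left side.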

How the data were processed

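Chromatin immunoprecipitation followed by sequencing was analysed from the 2 deposited peak lists of Caco2 cells. Per the submitters' processing notes, Bowtie 1.0.0, HOMER 1.2 and hg19 were used. HOMER findPeaks was run on either library in factor mode, per the file headers, at a false discovery rate of 0.001 and at least 4-fold over input and over the surrounding 10000 bp. The deposited score is a rounded tag count scaled by the authors to 10000000 tags and was not treated as a count. The peak size (142 and 226 bp) and the threshold (9 and 13 tags) differed between replicates 1 and 2. Scaled to 10000000 tags, the thresholds were closer, at scores of 7.54 and 7.04. Equal binding could still pass in 1 list and miss the other.

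All 7 genes of the rule are named and every peak of their windows is given. The genes, and the tables and comparisons built on them, were chosen with earlier results of these lists known. Partners overlap by at least 1 bp. No test was run. The alternatives were other overlap rules, the better scored peaks of the lists, and other window widths. Planned motif and annotation work on peaks was not run, as no hg19 sequence or annotation was used here. Overlap counting was tested on simulated lists. Deposited starts count from 0, and printed positions count from 1. Promoter sequences are those of RefSeq for GRCh38.p14. The work was done in Python 3.11.15 with scipy 1.17.1, numpy 2.4.6 and matplotlib 3.10.9.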

Additional observations from a re-analysis of the deposited data

How the results depend on the processing

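The 8 shared regions became 7 when 50% of both peaks had to overlap, with KLF5 losing 1 of its 3, and stayed 8 with midpoints within 100 bp. With peaks at or above the median score of their list alone, the windows held 7 peaks of replicate 1, 4 of replicate 2, 8 distinct regions and 3 shared ones, at KLF5 and ELF3. With the windows narrowed by 40 kb at each end they held 5 peaks of replicate 1, 4 of replicate 2, 7 distinct regions and 2 shared ones, at CDX2 and ELF3. Widened by 50 kb at each end they held 18 peaks of replicate 1, 21 of replicate 2, 27 distinct regions, and shared regions in 5 windows. By design these settings kept fewer peaks or less sequence, or more of it. The unlike gain of the lists in the wider windows was not tested. Leaving out a replicate left 11 to 14 distinct regions. The shares of peaks with a partner and the median scores stayed within their intervals under each setting, and the settings for the medians were added after seeing the data. With up to 3 mismatches, also added later, the full HNF1 site was in the ELF3 entry, at 200 to 188 bases before the start (lower case in the sequence shown), and in 7.56% of all entries. No paired analysis was possible because each immunoprecipitation has a single list and the inputs entered only through the calling. With 1 tag worth 0.838 and 0.541 score units, the 9 window peaks found once correspond by division to about 8 to 18 tags each. The lowest, the ELF3 peak that scored 7 in replicate 1, falls under the calling threshold of 9 tags, so these tags are approximate.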

Other observations

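The 50 kb beyond each end of the 7 windows held 10 further regions, of which 4 were shared, 6 came from the list of replicate 2 only and 0 from that of replicate 1 only. These lie outside the rule and were looked at after the window counts were known. The highest score of replicate 1 among them was that of a shared region at chr5:149471123-149471349, 24.8 kb beyond the CDX1 window on the side of PDGFRB and CSF1R, with scores of 30 in replicate 1 and 13 in replicate 2. Beyond the GATA6 window by 34.3 kb, on the upstream side, a shared region at chr18:19664589-19664815 scored 18 in replicate 1 and 12 in replicate 2. The KLF5 locus had 6 of the 10, and 4 of its 6 came from replicate 2 only, with scores of 7 to 14. Of its shared regions, that at chr13:73745376-73745602, 43.5 kb beyond the downstream window end, scored 13 in replicate 1 and 14 in replicate 2. The other, at chr13:73712938-73713291, scored 8 in each list. No region lay in these stretches at GATA4, ELF3 or ISX.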
